A study of Mus musculus with 36 samples.

Results

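The DNA double-strand break repair genes followed here are 36 listed genes of homologous recombination, end joining and damage signalling. All 36 were found by symbol among the 23845 genes of the expected-count table, and they were read across 6 groups of mouse embryos. A double-strand break is sensed by the MRE11, RAD50 and NBN complex and by the kinases ATM and ATR, which pass the signal to CHK1 and CHK2 and mark the flanking chromatin through the histone variant H2AX. The ends are then either rejoined directly by the KU, DNA-PKcs and LIG4 machinery, or cut back and repaired from the sister chromatid with BRCA1, PALB2, BRCA2 and their partners. Mouse embryos start with messages stored in the egg, which are replaced by embryonic ones from the 2-cell stage on.

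RNA was sequenced in 36 libraries, each from a pool of 4 to 5 embryos that the series text calls injected, with the SMART-seq v4 kit for very small RNA amounts. At the 8-cell stage (8C) there were 7 libraries labelled VP64, 6 labelled Ctrl and 6 labelled NI. At the 2-cell stage (2C) there were 6 labelled KRAB, 7 labelled Ctrl and 4 labelled NI. VP64 is the name of a transcriptional activator domain and KRAB that of a repressor domain; the labels name no strain, do not spell out NI and do not say what Ctrl embryos received. The series concerns LINE-1 retrotransposons in the early embryo, and those elements were not analysed here. No label names separate matings or cultures for the pools, so the p-values measure the spread between pools, which may be technical.

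Library totals ran between 1043743 and 13583558 counts, and the 36 genes together took between 0.0658% and 0.363% of a library. Stage markers followed the labels: the summed level of 5 genes of the 2-cell embryo was at most 36.03 CPM (counts scaled to 1000000 per library) in any 8C library and at least 271 CPM in any 2C library. The kit does not mark strand, so reads cannot be assigned in exon stretches shared with a gene on the opposite strand. Trp53bp1, Rad54l and Xrcc6 share 15%, 15.4% and 7.69% of their exon bases in this way with Tubgcp4, Lrrc41 and Desi1. H2afx shares 10.2% with Gm44335 and Rmi1 5.02% with Hnrnpk, among others. Rmi1 shares 29.5% of its 31-base words with other genes, mostly with Gm20775, Rnf8 shares 17%, mostly with Gm28043, which overlaps it on the same strand, and H2afx shares 11.2%, mostly with the histone gene Hist1h2ab, so their single values are less certain. Over all genes, 4 of the 7 Ctrl 2C libraries (replicates 1, 3, 5 and 7) stood apart from the other 2C libraries along the first principal component, which held 45.4% of the variance at that stage. At 8C, Ctrl replicate 6 stood furthest out on a component with 34.1% of the variance, and 5 of the 36 genes had no count in it. Stage calls of the 36 genes that change without these libraries are given both ways.

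By CPM averaged over the groups of a stage, H2afx (297), Rnf168 (226) and Chek2 (221) were the most abundant of the set at 8C, and Chek1 (272), Rif1 (268) and Brca2 (268) at 2C. Per kilobase of the longest coding transcript, which allows levels of different genes to be compared, H2afx led at 8C with 214 CPM per kilobase, before Chek2 with 97.0 and Rnf168 with 50.7. On the same scale Chek1 led at 2C with 71.6 CPM per kilobase, before Rnf168 with 40.03 and Chek2 with 33.3. The lowest levels per kilobase were those of Wrn at 8C, with 0.177, and of the kinase gene Atr at 2C, with 0.664. RNF168 is a ubiquitin ligase that recruits 53BP1 to marked chromatin, and RIF1 acts with 53BP1 in shielding the ends from resection.

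**Figure D1:**
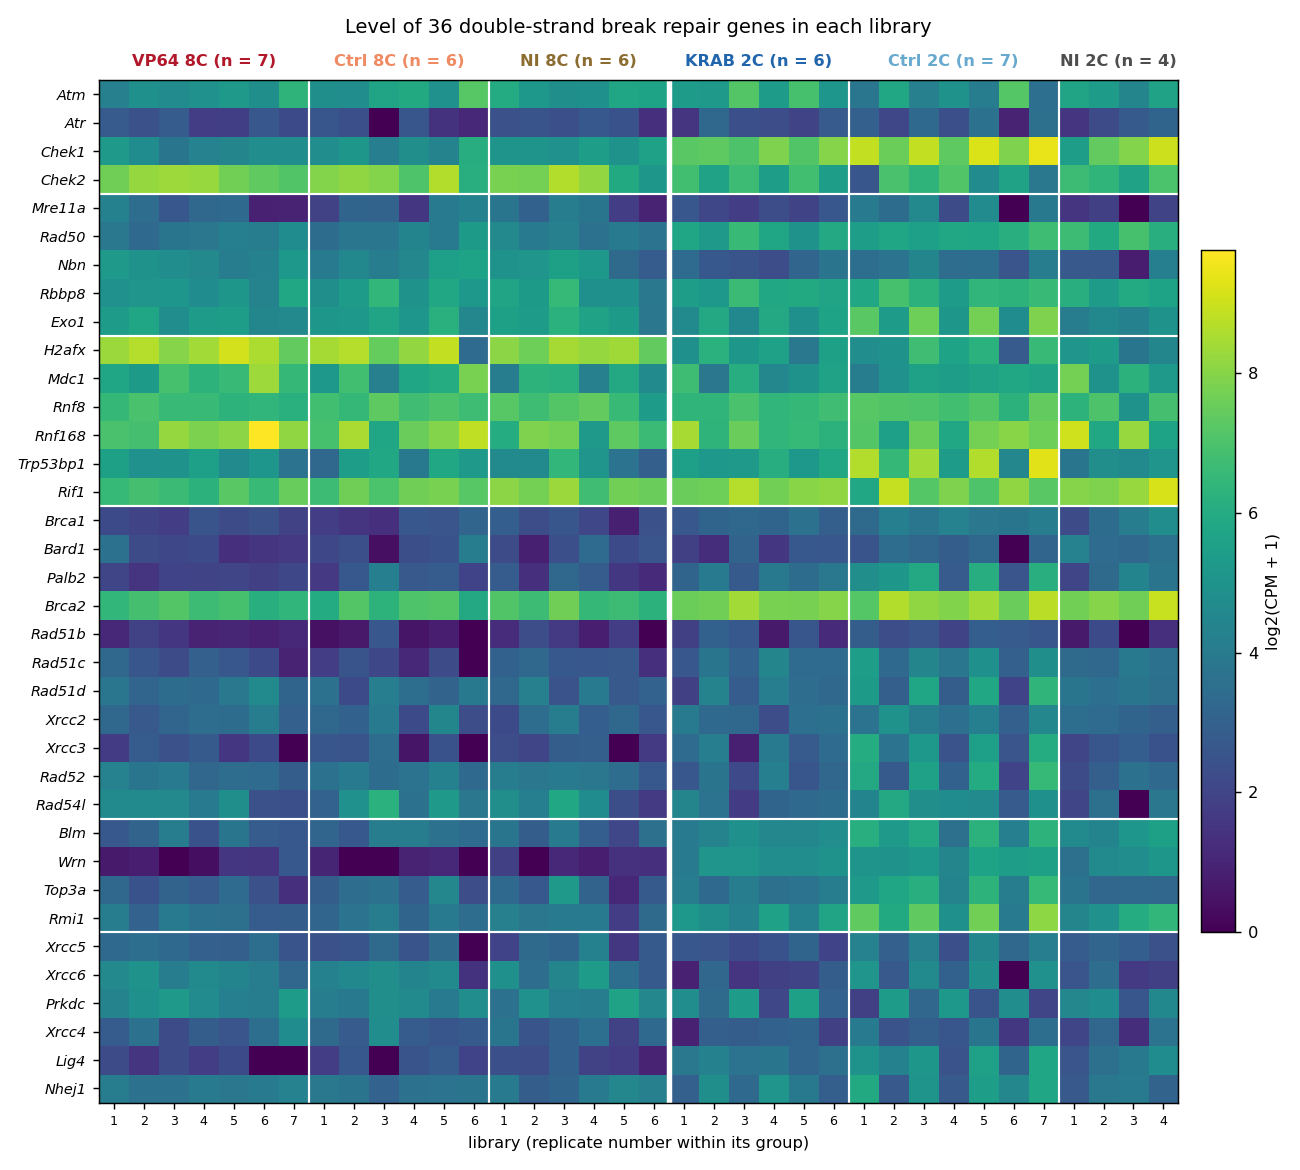
Level of each of the 36 genes (rows, grouped by role) in each of the 36 libraries (columns, grouped by label and stage), as log2(CPM + 1). Wrn is at or near the bottom of the scale in the 8C columns, with at most 5.39 CPM, H2afx is bright there except in Ctrl replicate 6, and Trp53bp1 is bright in replicates 1, 3, 5 and 7 of the Ctrl 2C columns.

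The set was first compared between the stages, within Ctrl and within NI, the 2 labels present at both. In both labels the recombination mediator genes Brca1 and Brca2, the helicase genes Wrn and Blm and the checkpoint kinase gene Chek1 fell at 8C, while the histone variant gene H2afx and the sensor gene Nbn rose. In Ctrl, 22 of the 36 genes passed an adjusted p of 0.05 in edgeR's quasi-likelihood test, 3 higher and 19 lower at 8C. All genes tested gave 61.5% called, 22.5% higher and 39% lower. In NI 12 of 36 passed, 4 higher and 8 lower, where all genes gave 49.9% called, 18.5% higher and 31.4% lower. The share of the set called was close to that of all genes in Ctrl (61.1%) and below it in NI (33.3%). In Ctrl the share was below too, at 11 of 36 against 44.6%, when the 4 Ctrl 2C libraries that stood apart were left out. The median log2 fold change of the set was -1.36 in Ctrl and -0.15 in NI, against -0.51 and -0.47 over all genes tested. Without the 4 Ctrl 2C libraries that stood apart, the set's median in Ctrl was -0.59, against -0.39 over all genes. With the size factors of DESeq2 as scaling, the median of all genes was -0.70 in Ctrl and -0.72 in NI, and the NI calls split into 2 higher and 10 lower. Levels are scaled to the library total, so a fall or rise between the stages is relative to the other transcripts. They do not give the amount of RNA per embryo. In whole embryos, fewer cells of a type and less RNA per cell cannot be told apart.

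Ctrl and NI share no library, so the calls of each can be set beside the other's. Lower at 8C in both were 8 genes, namely Wrn, Chek1, Rad50, Rmi1, Lig4, Brca1, Blm and Brca2. Higher in both were H2afx and Nbn. A further 11 genes were called lower and 1 higher in Ctrl alone, 2 were called higher in NI alone, 12 were called in neither, and 0 were called in opposite directions. The share of all genes called the same way in both labels was not counted. Whether the set differs from all genes in these shared calls is therefore not known. Taken singly, Ctrl had 39% and NI 31.4% of all genes lower. The difference between the 2 stage changes was tested as an interaction, and edgeR called 0 of the 36 genes and 0% of all genes, while DESeq2 called 3 of the 36 (5.24% of all genes) and limma-voom 15 (27.3% of all genes). An unadjusted p under 0.05 was reached by 9 of the 36 genes in edgeR, 1 of them higher and 8 lower in Ctrl. Over all 13158 genes tested it was reached by 2680, 892 higher and 1788 lower. Without the 4 Ctrl 2C libraries that stood apart, 11 genes were called in Ctrl, 2 higher and 9 lower, against 44.6% of all genes. Over all 12937 genes tested in that fit, 1950 were higher and 3820 lower. Of the 8 genes lower in both, Blm and Lig4 then lost the call in Ctrl, and of the 2 higher in both, Nbn did. Leaving out Ctrl 8C replicate 6 as well left 9 calls, 2 higher and 7 lower, against 45.6% of all genes. Over all 12804 genes tested in that fit, 2170 were higher and 3671 lower. With each of the 13 Ctrl libraries left out in turn, 19 of the 22 Ctrl calls held every time. Nbn lost its call in 7 of these fits, Xrcc5 in 4 and Rad51b in 3, with the highest adjusted p at 0.0849, 0.0900 and 0.0765. In NI 9 of 12 calls held in each of the 10 fits, while Mre11a lost its call in 8, Xrcc6 in 5 and Lig4 in 2, with the highest adjusted p at 0.113, 0.107 and 0.0915. Some calls shared by both labels were also lost under other settings. Lig4 and Nbn lost theirs in NI without libraries under 1500000 counts, and Brca2 in NI with only the compared groups in the fit. Nbn lost its Ctrl call in limma-voom and with only the compared groups.

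**Figure D2:**
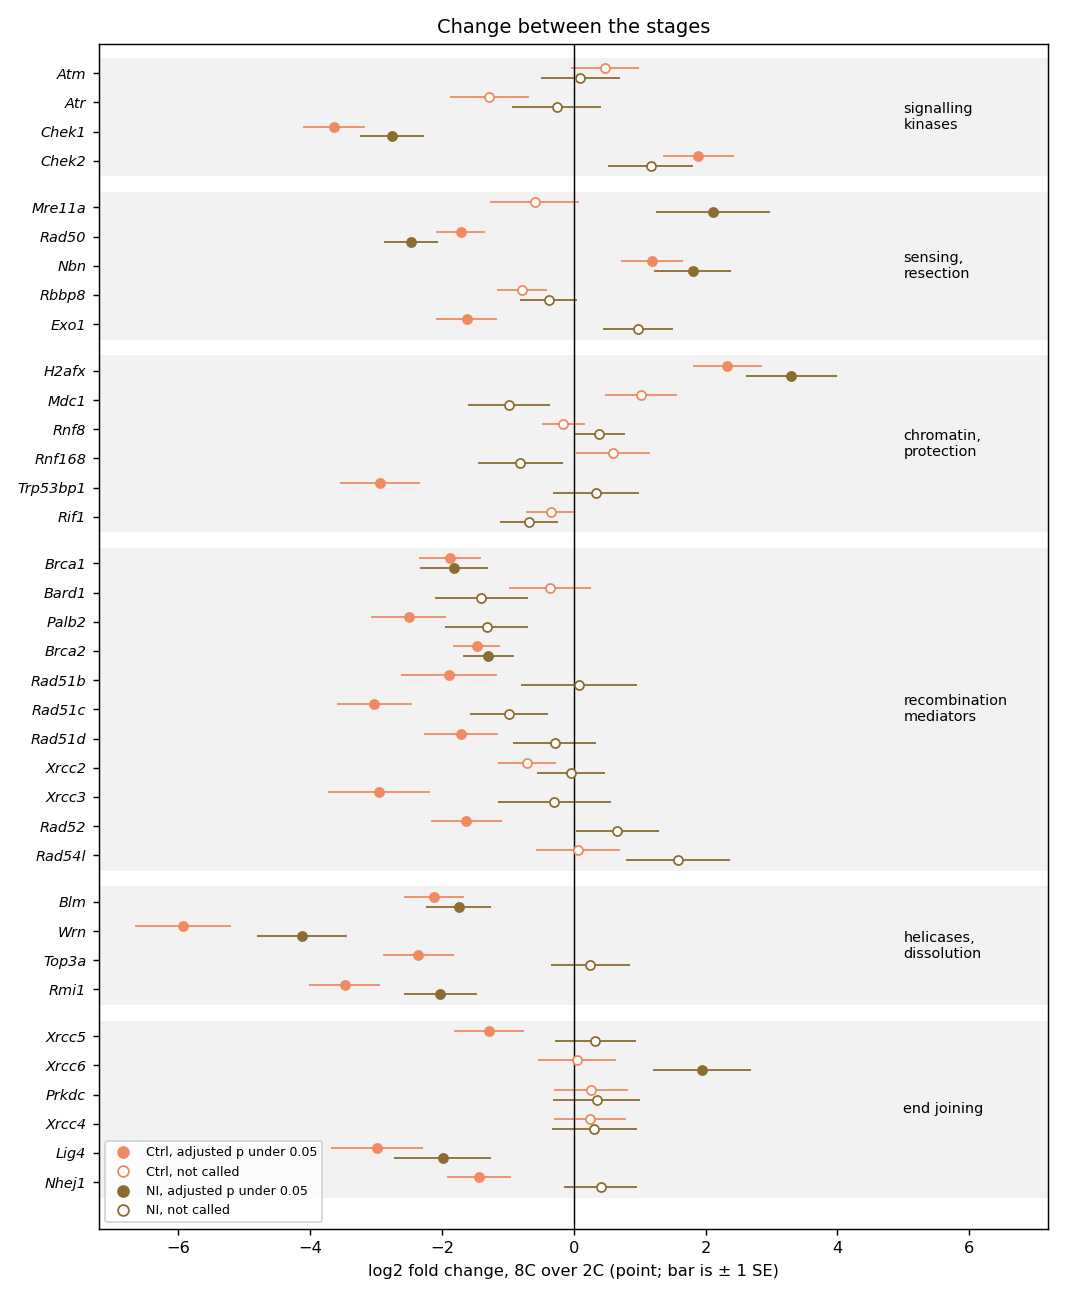
Log2 fold change of each gene at 8C over 2C with 1 SE, in Ctrl and in NI; filled points passed an adjusted p of 0.05 and open points did not. Wrn lies furthest to the left in both, at -5.93 in Ctrl and -4.12 in NI, and H2afx furthest to the right, at 2.33 in Ctrl and 3.30 in NI.

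Among the 4 damage signalling kinases, Chek1 fell in both groups. CHK1, which ATR activates, halts the cycle and restrains replication origins when DNA is unreplicated or broken. Chek1 (chromosome 9, 36708482 to 36727065, minus strand, GRCm38) had 17.1, 26.8 and 66.9 CPM in Ctrl 8C libraries (lowest, median and highest of 6), against 159, 459 and 684 CPM in Ctrl 2C libraries (7). In NI it had 29.4, 32.2 and 46.7 CPM in 8C libraries (6), against 43.7, 167, 246 and 512 CPM in the 4 2C libraries. The stages did not overlap in Ctrl, while in NI the lowest 2C library lay within the 8C range. The log2 fold change was -3.64 ± 0.47 (SE, adjusted p = 3.75e-08) in Ctrl and -2.76 ± 0.49 (adjusted p = 1.59e-05) in NI. Without the 4 Ctrl 2C libraries it was -2.71 ± 0.48 in Ctrl (adjusted p = 2.04e-05).

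Chek2, whose product is the kinase activated mainly by ATM, took the other direction. Chek2 (chromosome 5, 110839979 to 110874145, plus strand) had 70.3, 246 and 397 CPM in Ctrl 8C libraries, against 5.13, 48.1 and 136 CPM in Ctrl 2C libraries. Its log2 fold change was 1.89 ± 0.54 (adjusted p = 0.00281) in Ctrl, where the stages overlapped, and 1.17 ± 0.64 (adjusted p = 0.126) in NI. Without the 4 Ctrl 2C libraries the Ctrl value was 1.06 ± 0.60 (adjusted p = 0.149). Per base of transcript, the ratio of Chek2 to Chek1 was above 1 in 19 of 19 8C libraries, between 1.25 and 40.9 with a median of 11.5. At 2C the ratio was above 1 in 6 of 17 libraries, between 0.0187 and 3.88 with a median of 0.414. These ratios rest on the lengths of the longest coding transcripts, 2276 bases for Chek2 and 3797 for Chek1. By CPM alone, NI 8C replicate 6, the lowest at 8C, had less Chek2 than Chek1. The apical kinase genes Atm and Atr passed in neither group, with 0.47 ± 0.51 and -1.28 ± 0.60 on the log2 scale in Ctrl and 0.10 ± 0.60 and -0.26 ± 0.68 in NI.

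The 3 genes of the MRE11 complex, which binds the broken end and starts its resection, did not move together. Rad50 (chromosome 11, 53649519 to 53707319, minus strand), the structural subunit that tethers the ends, had 9.81, 14.4 and 38.9 CPM in Ctrl 8C libraries, against 42.8, 52.6 and 106 CPM in Ctrl 2C libraries. In NI the 8C libraries had 11.5, 14.9 and 23.1 CPM, against 102, 60.2, 121 and 67.5 CPM in the 2C libraries. No 8C library of either label reached the lowest 2C library of its label. Rad50 fell by 1.72 ± 0.37 on the log2 scale in Ctrl (adjusted p = 0.000122) and by 2.47 ± 0.41 in NI (adjusted p = 6.1e-06). Nbn (chromosome 4, 15957925 to 15992589, plus strand), the subunit that brings ATM to the break, had 14.9, 22.3 and 49.1 CPM in Ctrl 8C libraries, against 4.91, 10.5 and 20.6 CPM in Ctrl 2C libraries. In NI 8C libraries it had 6.11, 31.5 and 45.4 CPM, against 5.54, 5.52, 0.719 and 17.5 CPM in NI 2C libraries. Its stages overlapped in both labels. The log2 fold change of Nbn was 1.19 ± 0.47 (adjusted p = 0.0286) in Ctrl and 1.80 ± 0.59 (adjusted p = 0.0104) in NI, and without the 4 Ctrl 2C libraries it was 1.47 ± 0.65 in Ctrl (adjusted p = 0.0623). Mre11a, the nuclease, averaged 8.91 ± 6.62 CPM (SD, n = 6) in Ctrl 8C and 13.1 ± 9.35 CPM (n = 7) in Ctrl 2C libraries, and 8.70 ± 6.19 (n = 6) in NI 8C and 1.86 ± 1.33 (n = 4) in NI 2C libraries. It passed in NI only, with 2.11 ± 0.87 (adjusted p = 0.0407), and its interaction was -2.71 ± 1.09 (adjusted p = 0.155).

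Resection is carried on by the nuclease EXO1 and the cofactor CtIP, the product of Rbbp8. Exo1 (chromosome 1, 175880581 to 175913489, plus strand) fell by 1.62 ± 0.46 in Ctrl (adjusted p = 0.00238) and had 0.98 ± 0.53 in NI (adjusted p = 0.121). Its interaction of -2.60 ± 0.71 and that of Trp53bp1, -3.28 ± 0.89, had the smallest p-values of the set, each with an adjusted p of 0.0849; without the 4 Ctrl 2C libraries they were -0.70 ± 0.63 and -0.85 ± 0.80 (both adjusted p = 0.930). The Exo1 change in Ctrl was then 0.18 ± 0.47 (adjusted p = 0.789), so its call and its sign rest on them. Rbbp8 passed in neither group, with -0.78 ± 0.38 in Ctrl and -0.38 ± 0.43 in NI.

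In the chromatin around a break, H2AX is phosphorylated and read by MDC1, RNF8 and RNF168 add ubiquitin, and 53BP1 and RIF1 protect the ends. H2afx (chromosome 9, 44334694 to 44336077, plus strand) had 9.72, 317 and 461 CPM in Ctrl 8C libraries, against 5.89, 50.0 and 106 CPM in Ctrl 2C libraries. In NI it had 170, 280 and 348 CPM in 8C libraries, against 32.6, 40.8, 12.9 and 21.4 CPM in 2C libraries. The low Ctrl 8C value was that of replicate 6; the next lowest was 172 CPM, above each Ctrl 2C library, and in NI the stages did not overlap. H2afx rose by 2.33 ± 0.53 on the log2 scale in Ctrl (adjusted p = 0.000253) and by 3.30 ± 0.69 in NI (adjusted p = 0.000163). Without Ctrl 8C replicate 6 and the 4 Ctrl 2C libraries the Ctrl value was 3.52 ± 0.62 (adjusted p = 2.3e-05). Trp53bp1, the gene of 53BP1, fell by 2.94 ± 0.60 in Ctrl (adjusted p = 7.16e-05) and had 0.34 ± 0.65 in NI (adjusted p = 0.688), and the Ctrl value was -0.62 ± 0.58 (adjusted p = 0.400) without the 4 Ctrl 2C libraries. Mdc1, Rnf8, Rnf168 and Rif1 passed in neither group, with log2 fold changes between -0.34 and 1.02 in Ctrl and between -0.98 and 0.39 in NI. Rif1 had -1.10 ± 0.41 in Ctrl without the 4 Ctrl 2C libraries (adjusted p = 0.0255), and without Ctrl 8C replicate 6 too -0.96 ± 0.43 (adjusted p = 0.0645).

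**Figure D3:**
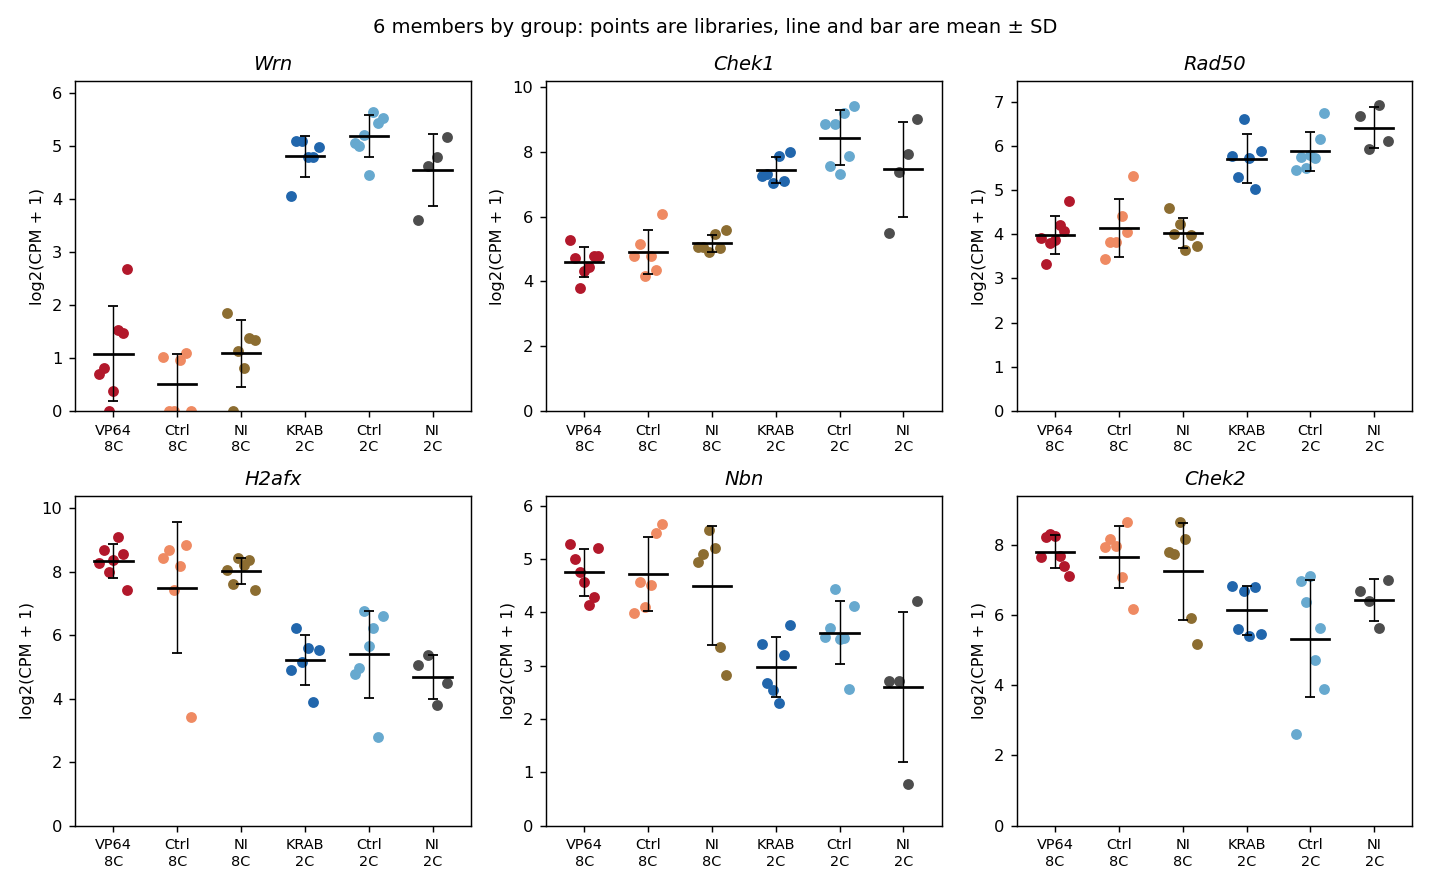
Log2(CPM + 1) of 6 of the genes by group; each point is a library, the line is the mean and the bar 1 SD of the log2 values. Wrn, Chek1 and Rad50 sit lower in the 3 8C groups, and H2afx, Nbn and Chek2 sit higher there, with the Ctrl 8C replicate 6 library as the low point of H2afx at 9.72 CPM.

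Recombination mediators prepare the resected end for strand exchange. Of these 11 genes, 8 fell in Ctrl and 2 in NI, and 0 rose in either, where 39% and 31.4% of all genes fell. Brca2, whose product acts at the resected end (chromosome 5, 150522630 to 150570329, plus strand), had 57.7, 105 and 142 CPM in Ctrl 8C libraries, against 145, 276 and 421 CPM in Ctrl 2C libraries. In NI it had 75.1, 101 and 196 CPM in 8C libraries, against 205, 251, 197 and 490 CPM in 2C libraries. The stages did not overlap in either label, narrowly so in NI, where the nearest libraries had 196.4 CPM at 8C and 197.0 CPM at 2C. Brca2 fell by 1.47 ± 0.35 in Ctrl (adjusted p = 0.000483) and by 1.29 ± 0.39 in NI (adjusted p = 0.00615). Brca1 (chromosome 11, 101488764 to 101551955, minus strand), which with BARD1 promotes resection and brings in PALB2, fell by 1.87 ± 0.47 in Ctrl (adjusted p = 0.000771) and by 1.81 ± 0.51 in NI (adjusted p = 0.00354). Brca1 averaged 3.98 ± 2.53 CPM (SD, n = 6) in Ctrl 8C and 14.5 ± 3.22 CPM (n = 7) in Ctrl 2C libraries, which did not overlap. In NI it averaged 3.97 ± 1.91 CPM (n = 6) at 8C and 14.1 ± 9.66 CPM (n = 4) at 2C, where they did.

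The other 6 mediators called in Ctrl were Rad51c, Xrcc3, Palb2, Rad51b, Rad51d and Rad52, with log2 fold changes between -3.02 and -1.63. RAD51C, RAD51B, RAD51D, XRCC2 and XRCC3 are related proteins that act together in complexes during recombination. Rad51c (chromosome 11, 87376645 to 87404954, minus strand) had 0, 2.87 and 4.79 CPM in Ctrl 8C libraries, against 6.87, 20.5 and 41.6 CPM in Ctrl 2C libraries. Its counts over the Ctrl 8C libraries were few, 62 in all. In NI the 8C libraries had 1.53, 5.50 and 8.66 CPM, against 9.23, 8.88, 14.4 and 11.9 CPM in the 2C libraries. Both labels kept their stages apart, narrowly so in NI, where the nearest libraries had 8.66 CPM at 8C and 8.88 CPM at 2C. Rad51c fell by 3.02 ± 0.57 in Ctrl (adjusted p = 2.02e-05) and had -0.99 ± 0.59 in NI (adjusted p = 0.160). Without the 4 Ctrl 2C libraries it was -1.99 ± 0.63 in Ctrl (adjusted p = 0.0103), while Xrcc3, Palb2, Rad51b, Rad51d and Rad52 no longer passed, with adjusted p between 0.0869 and 0.430. Rad51d and Rad52 changed sign there, to 0.85 ± 0.60 and 1.11 ± 0.56. Bard1, Xrcc2 and Rad54l passed in neither label.

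Helicases and dissolution factors take apart the joined intermediates of recombination, and 4 of 4 fell in Ctrl and 3 of 4 in NI, where all genes gave 39% and 31.4%. Wrn, the RecQ helicase lost in Werner syndrome in humans (chromosome 8, 33234384 to 33385527, minus strand), had 1.02, 0, 0, 0.9598, 1.13 and 0 CPM in the 6 Ctrl 8C libraries, against 20.9, 35.9 and 48.9 CPM in Ctrl 2C libraries. In NI 8C libraries it had 0, 1.36 and 2.61 CPM, against 11.1, 23.5, 26.6 and 35.0 CPM in NI 2C libraries. No 8C library reached the lowest 2C library of its label. Wrn fell by 5.93 ± 0.73 in Ctrl (adjusted p = 1.21e-08) and by 4.12 ± 0.68 in NI (adjusted p = 6.1e-06). VP64 8C libraries had 0, 0.758 and 5.39 CPM and KRAB 2C libraries 15.7, 28.6 and 33.3 CPM, so the 19 libraries at 8C all lay below the 17 at 2C. Few counts lay behind the 8C levels, 38, 13 and 43 in all over the VP64, Ctrl and NI libraries, which leaves the size of the fall loosely fixed.

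BLM, the RecQ helicase of Bloom syndrome in humans, works with topoisomerase IIIα and RMI1 in one complex. Rmi1 (chromosome 13, 58402248 to 58411148, plus strand) had 7.92, 11.1 and 16.4 CPM in Ctrl 8C libraries, against 15.7, 162 and 275 CPM in Ctrl 2C libraries. In NI it had 2.41, 14.03 and 18.1 CPM in 8C libraries, against 20.9, 29.3, 64.0 and 86.3 CPM in 2C libraries, with no overlap in NI. Rmi1 fell by 3.47 ± 0.54 in Ctrl (adjusted p = 1.06e-06) and by 2.02 ± 0.55 in NI (adjusted p = 0.00266), and by 1.69 ± 0.52 in Ctrl without the 4 libraries (adjusted p = 0.00812). Blm (chromosome 7, 80454733 to 80535119, minus strand) fell by 2.12 ± 0.45 in Ctrl (adjusted p = 0.000114) and by 1.74 ± 0.49 in NI (adjusted p = 0.00353). Without the 4 libraries its change in Ctrl was -1.07 ± 0.50 (adjusted p = 0.0776). Top3a fell in Ctrl alone, by 2.36 ± 0.54 (adjusted p = 0.000269), with 0.25 ± 0.60 in NI, and its interaction was -2.61 ± 0.81 (adjusted p = 0.0974). Without the 4 libraries Top3a had -1.70 ± 0.62 in Ctrl (adjusted p = 0.0244), and without Ctrl 8C replicate 6 as well -1.43 ± 0.63 (adjusted p = 0.0614).

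End joining genes were mixed. Lig4, the ligase that seals the ends (chromosome 8, 9969049 to 9977686, minus strand), had 0, 3.83 and 6.22 CPM in Ctrl 8C libraries, against 4.70, 30.8 and 53.8 CPM in Ctrl 2C libraries. In NI it had 0.916, 3.37 and 7.14 CPM in 8C libraries, against 4.92, 11.3, 14.4 and 25.9 CPM in 2C libraries. The stages overlapped at their edges in both labels. Lig4 fell by 2.98 ± 0.69 in Ctrl (adjusted p = 0.000335) and by 1.99 ± 0.73 in NI (adjusted p = 0.0226). Without the 4 Ctrl 2C libraries its value in Ctrl was -1.68 ± 0.77 (adjusted p = 0.0743). Xrcc6, which encodes KU70 (chromosome 15, 81987835 to 82040085, plus strand), had 5.80, 15.4 and 40.02 CPM in NI 8C libraries, against 4.92, 10.1, 2.16 and 2.64 CPM in NI 2C libraries. In Ctrl it had 1.72, 21.3 and 26.9 CPM in 8C libraries, against 0, 24.2 and 32.8 CPM in 2C libraries, where replicates 1, 3, 5 and 7 had 24.2 to 32.8 CPM and the other 3 had 7.26 CPM or less. Xrcc6 rose by 1.95 ± 0.75 in NI (adjusted p = 0.0290) and had 0.05 ± 0.59 in Ctrl, which became 1.93 ± 0.78 (adjusted p = 0.0406) without those 4 libraries. Xrcc5, the gene of KU80, and Nhej1, that of the bridging factor XLF, were called lower in Ctrl, with -1.29 ± 0.53 and -1.43 ± 0.48, and their values were -0.35 ± 0.67 and 0.05 ± 0.55 without the 4 libraries. Prkdc, the gene of DNA-PKcs, and Xrcc4 passed in neither label.

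Promoter sequence was looked at over the set, because many repair genes are switched on with DNA replication by E2F factors. It is printed for only some of the 8 genes lower at 8C in both labels. RefSeq entries for GRCm38.p6 were matched for 25 of the 36 genes, in 30 windows. The 200 bases before the transcription start of Chek1 (chr9:36726659-36726858, minus strand), Brca1 (chr11:101551956-101552155, minus strand), Brca2 (chr5:150522421-150522620, plus strand) and Blm (chr7:80534999-80535198, minus strand) are shown 5′ to 3′, with the words of the search in capitals. The RefSeq starts of Chek1 and Blm lie inside the GENCODE intervals given above, so the Chek1 window lies within its interval and the Blm window spans the 5′ edge of its own.
Chek1: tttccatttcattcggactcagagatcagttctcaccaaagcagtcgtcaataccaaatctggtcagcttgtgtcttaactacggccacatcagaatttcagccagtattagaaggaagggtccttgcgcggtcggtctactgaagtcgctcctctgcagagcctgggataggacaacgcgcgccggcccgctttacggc
Brca1: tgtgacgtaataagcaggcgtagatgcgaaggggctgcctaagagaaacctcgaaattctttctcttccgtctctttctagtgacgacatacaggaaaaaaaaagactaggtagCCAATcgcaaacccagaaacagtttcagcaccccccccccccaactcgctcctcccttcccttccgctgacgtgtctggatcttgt
Brca2: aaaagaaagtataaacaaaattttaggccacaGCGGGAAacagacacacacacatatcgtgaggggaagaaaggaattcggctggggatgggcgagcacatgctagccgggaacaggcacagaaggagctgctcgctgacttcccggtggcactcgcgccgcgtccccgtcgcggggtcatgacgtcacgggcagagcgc
Blm: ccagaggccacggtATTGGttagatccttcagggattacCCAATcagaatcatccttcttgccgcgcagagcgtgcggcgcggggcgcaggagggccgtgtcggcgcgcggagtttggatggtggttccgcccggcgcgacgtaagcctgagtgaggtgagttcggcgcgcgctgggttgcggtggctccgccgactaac
The E2F words TTCCCGC and TTGGCGC, the CCAAT box CCAAT and the cell cycle word TTTGAA were searched on both strands; no word contains another. Brca2 holds TTCCCGC on the minus strand, Brca1 holds 1 CCAAT, Blm holds 2 CCAAT, 1 of them on the minus strand, and Chek1 holds none of these letters in this window. Over all matched genes, falling or not, TTCCCGC was in 8 of 30 windows (26.7%) and in 3.28% of the 32851 windows of the table. TTGGCGC was in 1 (3.33%) and in 1.67%, CCAAT in 13 (43.3%) and in 29.3%, and TTTGAA in 0 of 30 and in 12.5%. A word in a window is a description of its letters only.

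Within the 2-cell stage, KRAB was compared with Ctrl and with NI, and Ctrl with NI. At an adjusted p of 0.05 edgeR called 0 of the 36 genes in KRAB against Ctrl, where 0% of all genes were called, and DESeq2 called 2 (2.05% of all genes) and limma-voom 18 (44.4% of all genes). Unadjusted p-values under 0.05 numbered 12 of 36, each lower in KRAB, and 1838 of all 11799 genes tested. Of these 1838 genes, 456 were higher and 1382 lower in KRAB. For Ctrl against NI edgeR again called 0, with 0% of all genes, DESeq2 called 5 (9.21% of all genes) and limma-voom 21 (50.5% of all genes). Here 10 genes had an unadjusted p under 0.05, 9 higher and 1 lower in Ctrl. So did 2756 of all genes, 1743 higher and 1013 lower. KRAB against NI gave 0 calls by edgeR, DESeq2 and limma-voom, 0% of all genes by edgeR, and 1 gene at an unadjusted p under 0.05 beside 368 of all genes. KRAB against Ctrl and Ctrl against NI share the Ctrl libraries.

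Top3a and Trp53bp1 had the smallest p-values in both comparisons that involve Ctrl 2C. Trp53bp1 (chromosome 2, 121193281 to 121271407, minus strand) had 44.4, 35.8, 36.3, 66.9, 35.3 and 55.02 CPM in the 6 KRAB libraries. Ctrl replicates 1 to 7 had 393, 88.3, 339, 41.4, 398, 21.6 and 633 CPM, and the 4 NI libraries 12.9, 27.1, 24.4 and 33.2 CPM. Its 4 highest values were those of Ctrl replicates 1, 3, 5 and 7, and the other 3 Ctrl libraries spanned the KRAB range. The log2 fold change was -2.32 ± 0.58 (adjusted p = 0.222) for KRAB against Ctrl and 3.20 ± 0.72 (adjusted p = 0.121) for Ctrl against NI. Top3a (chromosome 11, 60740058 to 60777365, minus strand) had 8.94, 14.3 and 16.7 CPM in KRAB libraries, 16.7, 53.9 and 90.4 CPM in Ctrl libraries and 12.3, 8.40, 8.63 and 8.25 CPM in NI libraries. Each Ctrl library lay above each NI library. The log2 fold change of Top3a was -1.69 ± 0.40 (adjusted p = 0.222) for KRAB against Ctrl and 2.18 ± 0.48 (adjusted p = 0.121) for Ctrl against NI.

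Exo1 and Rmi1 followed the same split of the Ctrl libraries. Exo1 had 152, 41.0, 194, 34.6, 210, 25.5 and 233 CPM in Ctrl replicates 1 to 7, beside 22.7, 39.1 and 57.8 CPM in KRAB libraries and 16.6, 22.3, 18.7 and 30.03 CPM in NI libraries. Rmi1 had 162, 59.4, 166, 28.6, 202, 15.7 and 275 CPM in Ctrl replicates 1 to 7, and 18.4, 31.97 and 50.3 CPM in KRAB libraries. Their log2 fold changes were 2.25 ± 0.58 (adjusted p = 0.121) for Exo1 in Ctrl against NI and -1.73 ± 0.54 (adjusted p = 0.222) for Rmi1 in KRAB against Ctrl. Prkdc ran the other way, with 2.57 to 8.24 CPM in replicates 1, 3, 5 and 7 and 26.5 to 40.2 CPM in the other 3. Replicates 1, 3, 5 and 7 had 4440193, 7742258, 8126276 and 10035101 counts in all, and replicates 2, 4 and 6 had 7176520, 1543653 and 1043743; the part of depth in the split was not tested. When the 4 were left out, edgeR still called 0 genes in either comparison. The median log2 fold change of the 36 genes was then -0.20 for KRAB against Ctrl and 0.06 for Ctrl against NI, beside -0.62 and 0.62 with them. Trp53bp1 was then -0.13 ± 0.44 for KRAB against Ctrl (adjusted p = 1.0) and 0.98 ± 0.47 for Ctrl against NI (adjusted p = 0.969). Top3a had -1.11 ± 0.46 (adjusted p = 1.0) and 1.57 ± 0.51 (adjusted p = 0.969) in the same order. Exo1 was 0.60 ± 0.44 for Ctrl against NI (adjusted p = 0.969) and Rmi1 -0.08 ± 0.51 for KRAB against Ctrl (adjusted p = 1.0). With Ctrl replicate 6 alone left out, the shallowest of the 2C libraries, edgeR called Top3a and Trp53bp1 lower in KRAB than in Ctrl (both adjusted p = 0.0498), beside 159 (1.34%) of all genes. Without it Trp53bp1, Exo1, Top3a, Mre11a, Xrcc3 and Rad52 were called higher in Ctrl than in NI (adjusted p between 0.0176 and 0.0485), beside 1374 (11.6%) of all genes. The interaction of stage and label then passed for Trp53bp1, Exo1, Top3a and Rad52 (adjusted p between 0.0097 and 0.0384), beside 1098 (8.36%) of all genes.

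**Figure D4:**
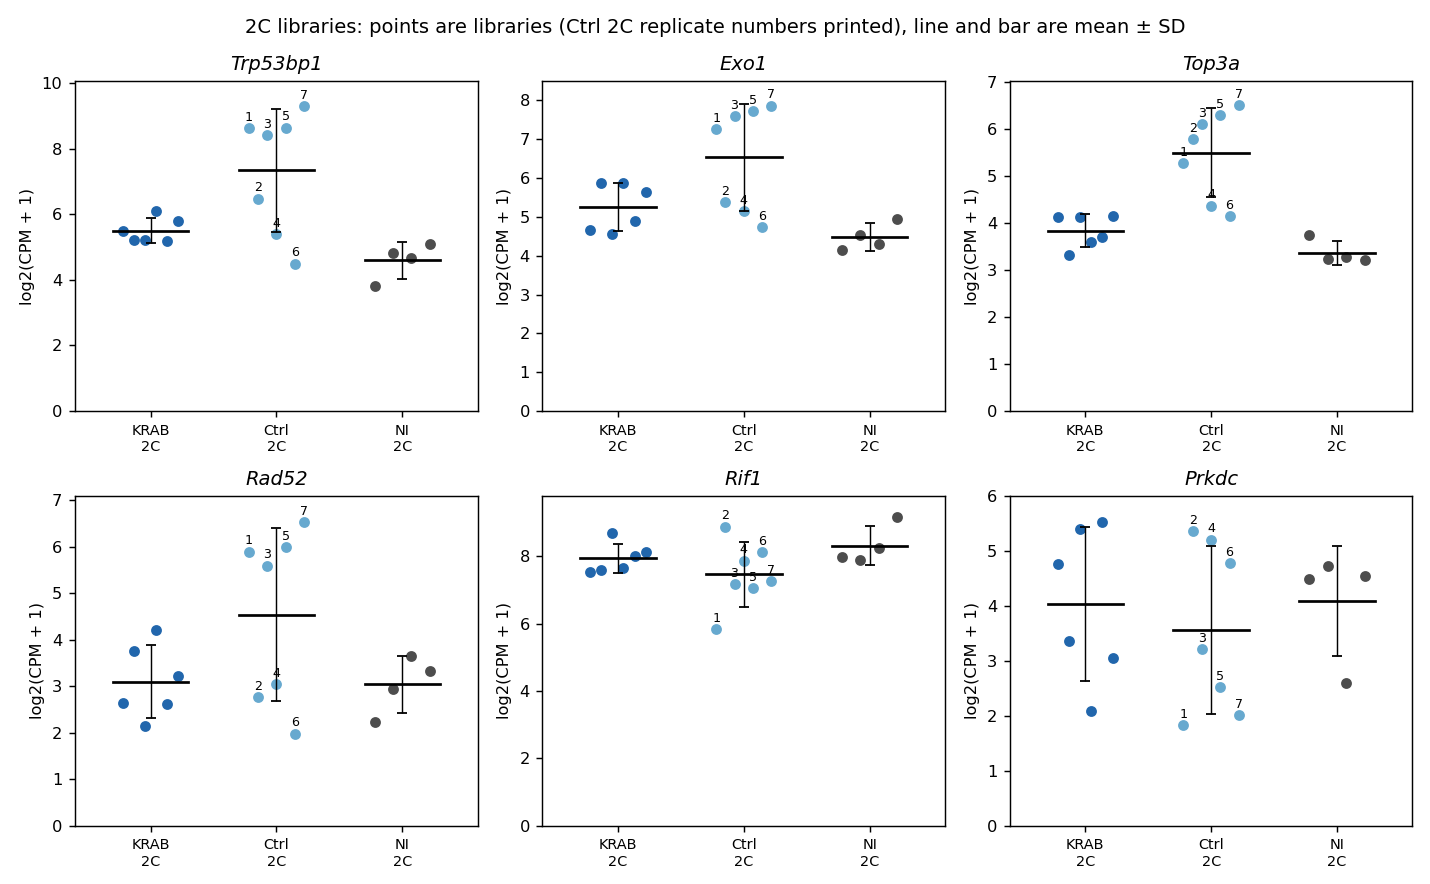
Log2(CPM + 1) of 6 genes in the 2C libraries by label; each point is a library, the numbers name the Ctrl replicates, the line is the mean and the bar 1 SD. Replicates 1, 3, 5 and 7 are above the other Ctrl libraries for Trp53bp1, Exo1 and Rad52 and below them for Prkdc, and for Rif1 they are the 4 lowest.

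KRAB against NI uses none of the Ctrl libraries. Bard1, the partner of BRCA1, had the smallest p, with 2.61, 1.43, 7.63, 1.95, 5.44 and 5.22 CPM in the 6 KRAB libraries and 19.1, 9.59, 8.63 and 11.9 CPM in the 4 NI libraries. The 2 groups did not overlap, and the log2 fold change was -1.61 ± 0.64 (adjusted p = 0.998). Rad50 and Rad51b came next, at -0.76 ± 0.42 and 1.31 ± 0.74 (both adjusted p = 0.998). Over the set, 95% intervals of the log2 fold change had a median half-width of 1.24.

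Cumulus and granulosa cells surround the egg and could be carried into a pool. Of 12 of their markers, 7, 4 and 4 had counts in VP64, Ctrl and NI 8C libraries, and 9, 9 and 8 in KRAB, Ctrl and NI 2C libraries; Col1a2 was at 0 in each group. Their summed level was 0.600 to 243 CPM in VP64 8C, 0 to 11.4 in Ctrl 8C and 0.402 to 1.53 in NI 8C libraries. It was 4.35 to 298 CPM in KRAB 2C, 2.88 to 150 in Ctrl 2C and 15.8 to 83.5 in NI 2C libraries. Hsd3b1 made up most of the VP64 8C level, with a mean of 32.3 CPM and 5 of 7 libraries at 0. The next marker there, Star, averaged 1.56 CPM. In KRAB 2C libraries Hsd3b1 averaged 67.7 CPM, and the next marker, Inhba, 15.7 CPM. The summed level of 5 oocyte transcripts was 35.2 to 433 CPM over the 8C libraries. At 2C it was 4884 to 11820 CPM in KRAB, 2503 to 15410 in Ctrl and 2604 to 21090 in NI libraries, and 0 of the 5 were at 0. Among them, Bmp15 averaged 403 CPM in KRAB, 1280 in Ctrl and 346 in NI 2C libraries, Gdf9 265, 562 and 191, and Oosp1 1660, 983 and 1578. In the same order Omt2a averaged 6274, 4578 and 7079 CPM, and Zp3 69.0, 63.1 and 80.2 CPM. Of 8 sperm markers the sum was at most 1.99 CPM at 8C and 20.8 CPM at 2C. These levels move with the stage. At 2C the oocyte transcripts did not shift together in Ctrl: the means of Bmp15 and Gdf9 were highest there, and those of Oosp1, Omt2a and Zp3 lowest. The part of all these markers in the changes of the repair genes was not tested.

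Within the 8-cell stage, 34 of the 36 genes passed the filter on low counts, Rad51b and Wrn being left out. VP64 against Ctrl, Ctrl against NI and VP64 against NI each gave 0 calls over the set by edgeR, DESeq2 and limma-voom, and edgeR called 0% of all 9850 genes in each. DESeq2 called 0.0102%, 0.0102% and 0.215% of all genes and limma-voom 0%, 0% and 0.142%. Unadjusted p-values under 0.05 numbered 1 for VP64 against Ctrl (393 over all genes), 0 where Ctrl was set against NI (429) and 3 where VP64 was (706). Palb2, which bridges BRCA1 and BRCA2, had 1.77, 3.002 and 3.295 CPM in VP64 libraries, against 2.03, 5.45 and 17.4 CPM in Ctrl libraries. The groups overlapped, and the log2 fold change was -1.27 ± 0.54 (adjusted p = 0.999). Rif1 (chromosome 2, 52072832 to 52122383, plus strand) had 76.0, 100 and 176 CPM in VP64 libraries, 101, 172 and 222 CPM in Ctrl libraries and 108, 206 and 308 CPM in NI libraries. Its log2 fold change was -0.53 ± 0.31 (adjusted p = 0.999) for VP64 against Ctrl and -0.87 ± 0.31 (adjusted p = 0.623) for VP64 against NI. Atm followed Palb2 and Rif1 by p for VP64 against Ctrl, at -0.71 ± 0.43 (adjusted p = 0.999).

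Mdc1 and Rnf168, which act in sequence on marked chromatin, were the genes with the next smallest p-values against NI. Mdc1 had 38.7, 89.3 and 318 CPM in VP64 libraries, 17.8, 59.6 and 217 CPM in Ctrl libraries and 16.6, 41.6 and 78.0 CPM in NI libraries. Rnf168 had 117, 262.4 and 859 CPM in VP64 libraries, 52.7, 213 and 452 CPM in Ctrl libraries and 38.2, 131 and 231 CPM in NI libraries. All 3 groups overlapped for both genes, and the highest VP64 value of both was that of replicate 6. This was the VP64 library with 243 CPM summed over the cumulus and granulosa markers, a list in which Hsd3b1 had by far the highest VP64 mean. The part of these markers was not tested. For VP64 against NI the log2 fold changes were 1.34 ± 0.57 for Mdc1 and 1.21 ± 0.53 for Rnf168 (both adjusted p = 0.672). For Ctrl against NI they were 0.94 ± 0.58 and 0.85 ± 0.54, and Rad51c had -1.06 ± 0.60. The median 95% half-width over the set at 8C was between 0.953 and 0.991, and the largest absolute log2 fold change was 1.34.

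Of 90 further genes of break repair and neighbouring pathways, 87 were in the table and 81 were tested between the stages. In Ctrl 12 were higher and 30 lower at 8C, and in NI 15 were higher and 17 lower, 51.9% and 39.5% of those tested, below the 61.5% and 49.9% of all genes. Without the 4 Ctrl 2C libraries that stood apart, 26 of the further genes were called in Ctrl, against 44.6% of all genes. Leaving out Ctrl 8C replicate 6 as well gave 27, against 45.6% of all genes. The counts by role and single values below are from the fit with all libraries. The counts by role below stand beside 22.5% of all genes higher and 39% lower in Ctrl, and 18.5% higher and 31.4% lower in NI. Single-strand and alternative end joining factors had 6 of 14 higher in each label, with 4 lower in Ctrl and 1 in NI. Polm, a polymerase that fills gaps in end joining, fell by 4.21 ± 0.62 in Ctrl and by 2.94 ± 0.62 in NI. Of 13 meiotic recombination genes tested, 1 was higher and 6 lower in Ctrl, and 2 higher and 5 lower in NI. Hsf2bp, a binder of BRCA2 in meiosis, fell by 5.98 ± 0.61 in Ctrl (adjusted p = 4.37e-10) and by 3.04 ± 0.56 in NI, and Tex11 fell by 3.70 ± 0.63 in Ctrl and by 3.62 ± 0.67 in NI.

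Checkpoint clamp and adaptor genes gave 5 of 12 lower in Ctrl and 2 of 12 in NI, with none higher. Clspn, which holds CHK1 near its activator ATR, fell by 1.59 ± 0.39 in Ctrl (adjusted p = 0.00053) and by 2.29 ± 0.43 in NI, and Hus1, a subunit of the sliding clamp, fell by 2.11 ± 0.53 in Ctrl. Among 13 Fanconi anaemia and crosslink repair genes, 1 was higher and 5 lower in Ctrl, and 1 higher and 3 lower in NI. The higher one in both was Fancl, the ubiquitin ligase of the core complex, with 2.59 ± 0.50 in Ctrl (adjusted p = 2.8e-05) and 3.41 ± 0.65 in NI, while Fancc, a core complex subunit, fell by 3.002 ± 0.558 in Ctrl. Resolvases and other recombination factors gave 2 of 14 higher and 5 lower in Ctrl, and 1 higher and 3 lower in NI. The helicase gene Helq fell by 4.10 ± 0.61 in Ctrl and by 1.67 ± 0.60 in NI, and the nuclease gene Dna2 by 3.14 ± 0.63 in Ctrl and by 1.87 ± 0.65 in NI. Ubiquitin response genes gave 2 of 15 higher and 5 lower in Ctrl, and 5 higher and 3 lower in NI. The deubiquitinase genes Usp28 and Usp3 fell by 4.87 ± 0.62 and 3.15 ± 0.55 in Ctrl and by 3.95 ± 0.62 and 2.31 ± 0.57 in NI. Within a stage edgeR called 0 of these genes in each of the 6 comparisons, as it did 0 of all genes. Unadjusted p-values under 0.05 at 2C numbered 14 in KRAB against Ctrl, 19 in Ctrl against NI and 2 in KRAB against NI. These were 17.7%, 24.1% and 2.53% of those tested, beside 15.6%, 23.4% and 3.12% of all genes. At 8C they numbered 5 in VP64 against Ctrl, 4 in Ctrl against NI and 8 in VP64 against NI. These were 6.49%, 5.19% and 10.4%, beside 3.99%, 4.36% and 7.17% of all genes. For KRAB against Ctrl DESeq2 called 2 and limma-voom 40 of the further genes, beside 2.05% and 44.4% of all genes. For Ctrl against NI at 2C they called 9 and 39, beside 9.21% and 50.5% of all genes. In the other 4 comparisons both called 0, beside at most 0.215% of all genes.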

How the data were processed

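RNA-seq was deposited by the authors as 1 table of expected counts per gene symbol, with a column for each of the 36 libraries. Bowtie2, RSEM and mm10 are named per the submitters' processing notes; the annotation and tool versions were not given in the sources used here. Of the deposited expected counts, 9.85% were not whole, and all were rounded to whole numbers. Per-sample columns not used numbered 0. Groups came from the treatment and stage labels. Replicate numbers were given in accession order and pair no samples. Over 93 pairs of replicates the chi-square per degree of freedom was at least 6.919, so no library was taken for a repeat of another.

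Tests were edgeR 4.0.16 quasi-likelihood fits (robust, TMM scaling) under R 4.3.3, with the filterByExpr filter (count minimum 10, total minimum 15) and p-values adjusted after Benjamini and Hochberg over all genes tested. Comparisons within a stage used the libraries of that stage (11799 genes at 2C, 9850 at 8C), and comparisons between stages and the interaction used all 36 (13158 genes). The biological coefficient of variation was 0.738, 0.609 and 0.703 in these fits. The procedure was tested on simulated data. CPM are rounded counts scaled to 1000000 by the TMM-scaled library total. Counting error is small beside the spread between pools for most genes, and few counts lie behind values under 1 CPM. Alternatives were DESeq2 1.42.0, limma-voom (limma 3.58.1) with quality weights, the size factors of DESeq2 in edgeR, no low-count filter, only the compared groups, no libraries under 1500000 counts, and each library left out in turn. Gene coordinates are from GENCODE vM21 and promoters from RefSeq on GRCm38.p6.

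All 36 genes were described. Full values were given for the 5 largest rises and falls among called genes with a group mean of at least 10 CPM in each label, the 3 smallest p-values within a stage, the 3 most abundant genes per stage and the 2 smallest p-values of the interaction. Up to 2 genes per role were named from the further list, by smallest p between the stages in Ctrl; a gene named by this rule is not reported here. The values of other named members were chosen after they were seen. The genes and lists were chosen with earlier results of these data known.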

Additional observations from a re-analysis of the deposited data

Results flagged for a closer look

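Values of single libraries were examined on the log2(CPM + 1) scale for 21 genes in 6 groups each, and 10 of 126 groups held a library whose gap to its nearest neighbour was large beside the range of the group. Chance gives about 1 in 20. At 8C, Ctrl replicate 6 was low for H2afx, with 9.716 CPM where the nearest library had 171.9, and for Xrcc6, with 1.715 CPM beside 18.27. It is the library that stood furthest out over all genes at that stage. Ctrl 8C replicate 3 was high for Rad51b, with 5.206 CPM beside 0.7537. Bard1 was high in VP64 8C replicate 1, with 11.83 CPM beside 3.792, and Palb2 was low in VP64 8C replicate 2, with 1.77 CPM beside 2.643. In NI 8C libraries Rmi1 was low in replicate 5, with 2.414 CPM beside 9.467, and Rad51c in replicate 6, with 1.527 CPM beside 5.318. At 2C, Wrn was low in KRAB replicate 1, with 15.67 CPM beside 26.58, and Bard1 had a count of 0 in Ctrl replicate 6, where the nearest library had 4.849 CPM. Top3a was high in NI 2C replicate 1, with 12.31 CPM beside 8.628. No cause was tested for any of these values.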

How the results depend on the processing

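Over the 36 pairs of a gene and a comparison fixed by the naming rule there were 688 refits, of which 634 kept their direction and their side of the threshold, 29 passed only under the alternative, 25 passed only as reported, and 0 changed sign; outside these pairs, the called stage changes of Exo1, Rad51d, Rad52 and Nhej1 in Ctrl changed sign without 4 Ctrl 2C libraries, and that of Xrcc5 without Ctrl 8C replicate 6 too. Of 178 recounts of the set, 163 stayed within 1.5 times or stayed at 0. The reported count was 0 in every comparison but the 2 stage changes, so many of the 163 only set 0 beside 0. For KRAB against Ctrl, 0 genes as reported became 2 with DESeq2 and 18 with limma-voom (0 as against 242 and 5234 of all genes). For Ctrl against NI at 2C they became 5 and 21 (1086 and 5962 of all genes), and 2 without libraries under 1500000 counts (254 of all genes). The interaction gave 3, 15 and 2 in the same order (690, 3589 and 698 of all genes). At 8C, VP64 against NI gave 21 of all genes with DESeq2 and 14 with limma-voom. The stage change in Ctrl gave 11 calls without 4 Ctrl 2C libraries and 9 without Ctrl 8C replicate 6 too, both alternatives chosen after seeing the data. With 1 library left out at a time, calls numbered 20 to 23 for the stage change in Ctrl, 9 to 13 in NI, 0 to 2 for KRAB against Ctrl, 0 to 6 for Ctrl against NI at 2C, 0 to 4 for the interaction and 0 elsewhere. The highest of the last 3 ranges was reached without Ctrl 2C replicate 6, and the interaction gave 1 without replicate 2 and 2 without replicate 4. The size factors of DESeq2 split the stage calls into 3 higher and 21 lower in Ctrl and 2 higher and 10 lower in NI. The cause of these shifts was not tested. No paired analysis was possible because the labels carry no replicate numbers. Few counts limit Wrn, Rad51b and Lig4 at 8C. The same holds for others in Ctrl 8C libraries, such as Rad51c, Atr and Brca1, with 62, 54 and 82 counts in all.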
